A study of Mus musculus with 9 samples.

Results

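The *Lce1* genes encode late cornified envelope proteins of mouse skin, and 10 of them were followed here (*Lce1a1*, *Lce1b*, *Lce1c*, *Lce1d*, *Lce1f*, *Lce1g*, *Lce1h*, *Lce1i*, *Lce1l* and *Lce1m*). They were taken by gene identifier from a table of 17943 genes, and all 10 passed the filter on low counts that kept 16426 genes for testing. The table holds bulk RNA-Seq counts of skin, with 5 control and 4 *Supt6*-KO libraries, and the study asks how loss of the elongation factor SPT6 in keratinocytes changes skin transcription. *Supt6*-KO mice carried K14-CreERT and 2 floxed *Supt6* alleles and received 5 daily injections of tamoxifen in the first telogen. Control mice carried the floxed alleles without the Cre transgene and received corn oil, although the sample labels call them WT and call the other group a knockdown. Skin of both groups was taken on day 10 after the final injection. The age of these mice is not given in the sources used here, and the tissue is the ear in the labels and dorsal skin in the study's text, lesional in *Supt6*-KO mice and from the same site in control mice. K14 drives Cre in basal keratinocytes, so the dermis, muscle and immune cells of the sample keep *Supt6*. Since the groups differ in both the transgene and tamoxifen, their effects cannot be told apart. The total was 29627334 to 30491190 counts per control library and 30597190 to 30967109 per *Supt6*-KO library.

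The cornified envelope is the protein shell that replaces the plasma membrane of a keratinocyte as it dies at the skin surface. Transglutaminases cross-link precursors such as loricrin, involucrin and the small proline-rich proteins into this shell, and the late cornified envelope proteins join it in the outermost living layers. Their genes form a cluster in the epidermal differentiation complex, where *Lce1* genes are known as part of normal epidermis and *Lce3* genes as genes of injured or inflamed epidermis.

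In RefSeq (GRCm38.p6) the *Lce1* members follow one another on chromosome 3. *Lce1a1* (NCBI gene 67127) lies at chr3:92646532-92648307, *Lce1b* (68720) at chr3:92655650-92656926, *Lce1c* (73719) at chr3:92679247-92680918, *Lce1d* (69611) at chr3:92685499-92687210 and *Lce1f* (67828) at chr3:92718696-92720350. *Lce1g* (66195) lies at chr3:92750151-92752338, *Lce1h* (67718) at chr3:92763215-92765065, *Lce1i* (76585) at chr3:92777210-92778899 and *Lce1l* (73730) at chr3:92849949-92851286. The 6 *Lce3* genes come next, and *Lce1m* (66203) lies beyond them at chr3:93017807-93019061. *Lce1c* is read from the forward strand and the other 9 members from the reverse strand. In the GENCODE annotation each member has 2 exons, and the whole coding sequence stands in exon 2. The coding sequence has 399 bases in *Lce1d*, the shortest member, and 546 in *Lce1m*, the longest.

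The 120 bases before the transcription start are shown for 6 members, 5′ to 3′ along the gene, to show how alike the members are in this stretch and how *Lce1l* and *Lce1m* differ from the rest. A promoter of 250 bases before and 50 bases after the start was found in RefSeq for 9 of the 10 members, all but *Lce1f*. Capitals mark ACTGTNTCAC and GNATAAAAGG, where N is any base. A script found them as the longest stretches, with at most 1 free position, that at least 7 members shared within these 120 bases, and the limit of 7 was set after the sequences had been seen. How many members hold them is therefore fixed by the search and is a description only. The intervals are chr3:92656927-92657046 for *Lce1b*, chr3:92687211-92687330 for *Lce1d*, chr3:92752339-92752458 for *Lce1g*, chr3:92765066-92765185 for *Lce1h*, chr3:92851287-92851406 for *Lce1l* and chr3:93019062-93019181 for *Lce1m*, all on the reverse strand.
Lce1b: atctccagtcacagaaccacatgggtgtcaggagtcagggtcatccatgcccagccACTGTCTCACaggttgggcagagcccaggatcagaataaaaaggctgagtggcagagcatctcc
Lce1d: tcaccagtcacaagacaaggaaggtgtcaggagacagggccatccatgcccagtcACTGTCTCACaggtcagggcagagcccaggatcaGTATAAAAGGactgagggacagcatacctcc
Lce1g: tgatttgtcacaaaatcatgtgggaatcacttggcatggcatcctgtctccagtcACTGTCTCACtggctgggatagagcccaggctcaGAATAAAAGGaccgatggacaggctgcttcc
Lce1h: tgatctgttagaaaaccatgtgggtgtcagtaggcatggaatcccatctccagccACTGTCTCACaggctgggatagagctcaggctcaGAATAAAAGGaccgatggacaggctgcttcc
Lce1l: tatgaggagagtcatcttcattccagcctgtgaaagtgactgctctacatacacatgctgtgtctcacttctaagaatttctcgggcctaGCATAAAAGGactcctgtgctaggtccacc
Lce1m: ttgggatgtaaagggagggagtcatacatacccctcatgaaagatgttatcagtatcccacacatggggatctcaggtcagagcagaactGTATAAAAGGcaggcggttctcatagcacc

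ACTGTNTCAC stood in the promoters of 7 of the 9 members with an entry, *Lce1a1*, *Lce1b*, *Lce1c*, *Lce1d*, *Lce1g*, *Lce1h* and *Lce1i*. Its first base lay 64 or 65 bases upstream of the start. *Lce1l* and *Lce1m* did not hold these letters, nor did any of the 6 *Lce3* promoters, and 0.262% of 32851 RefSeq promoters of the same length did on either strand. GNATAAAAGG began 30 or 31 bases upstream in 7 members, all with an entry but *Lce1a1* and *Lce1b*. It stood in *Lce3d*, *Lce3e* and *Lce3f* too and in 0.490% of all promoters. The TATA box TATAAA, which overlaps GNATAAAAGG where N is T, was found in *Lce1d* and *Lce1m* and in 13.6% of all promoters. None of the 9 promoters held TGANTCA (AP-1, in 7.81% of all promoters), AACCNGTT (grainyhead-like, 2.09%), TTGCNNAA (C/EBP, 10.8%) or the NF-kB motif (1.63%). These are matches of letters in a window of 300 bases, searched on both strands.

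Aligned over the 250 upstream bases, the 7 members with ACTGTNTCAC shared 68.8% to 85.6% of positions with each other (median 72.4% of 21 pairs). These 7 were grouped by a stretch within the same bases, so a higher identity among them is partly built in. Identity between unrelated promoters was not measured. *Lce1l* shared a median of 61.6% with the other 8 members that had an entry, and *Lce1m* 62.8%. This was close to the median of 61.0% (56.8% to 64.8%) between *Lce1* members and *Lce3* genes, 54 pairs in all. Few stretches of the transcripts were shared with other genes. Of all stretches of 100 bases in the exons of a member, 0% (*Lce1l* and *Lce1m*) to 2.15% (*Lce1a1*) occurred letter for letter in the transcript of another gene. It was 0% in *Lce3a*, 1.08% in *Lce3b* and 24.1% to 43.0% in *Lce3c* to *Lce3f*, whose single values are therefore less certain.

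*Supt6* was examined as a check of the labels. It had 2786, 2068, 2297, 3370 and 3798 counts in control mice 1 to 5, and 684, 503, 478 and 791 in *Supt6*-KO mice 1 to 4. Every *Supt6*-KO mouse lay below every control. Its log2 fold change was -1.57 (standard error, SE, 0.18; edgeR quasi-likelihood adjusted p = 1.3e-05), and -1.63 without mouse 4.

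*Supt6*-KO mouse 4 stood apart from the other 3 *Supt6*-KO mice in the *Lce1* genes, so the *Lce1* results are given with and without it. For the other gene lists the calls that change without it are named. Mouse 4 was singled out by these same *Lce1* values. For the *Lce1* genes, standard errors and adjusted p without it are therefore a description of the remaining mice and not a test. Levels are given as CPM, each count scaled to the library size after edgeR's TMM normalization. The TMM factor was 0.910 in mouse 4, 0.674 to 0.781 in the other *Supt6*-KO mice and 1.198 to 1.315 in the controls. The factors thus raise the *Supt6*-KO levels against the controls. Where a mouse changes its place against the controls on library totals alone, this is said for the *Lce1* genes and for the sums. Of the small proline-rich envelope precursors, *Sprr1b* stood at 2229 CPM in mouse 4 and at 456 to 1075 CPM in the other *Supt6*-KO mice, and *Sprr2a1* at 2794 CPM against 3974 to 4400 CPM. Mouse 4 differed too in the basal keratin *Krt14*, with 9613 CPM against 4730, 3114 and 3962 CPM in *Supt6*-KO mice 1 to 3. Its *Krt10*, the keratin of the suprabasal layers, stood at 7775 CPM against 18223 to 19847 CPM in those mice. The sample labels do not set this mouse apart. In the deposited table it is the only *Supt6*-KO mouse with TPM values beside its counts, as all 5 controls have, and *Supt6*-KO mice 1 to 3 have counts only. Why mouse 4 differs was not tested.

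*Lce1* transcripts were more abundant in *Supt6*-KO skin, with 8 of the 10 members called higher and none lower. *Lce1f* rose most, by 6.31-fold, and the other 7 called members by 2.54-fold to 5.21-fold, while *Lce1l* and *Lce1m* did not pass. A gene was called when its adjusted p was under 0.05 in the quasi-likelihood test of edgeR (adjusted over all 16426 genes by the Benjamini-Hochberg method) and it differed by at least 2-fold. By this rule 20.9% of all genes tested were higher and 24.9% lower. The median log2 fold change was 1.69 over the 10 members and -0.072 over all genes tested. With an unadjusted p, as in the methods of the study, the calls of the members did not change, against a background of 21.1% higher and 25.2% lower. In bulk skin, fewer cells of a type and less RNA per cell cannot be told apart, and neither can more of either.

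The rise was that of *Supt6*-KO mice 1 to 3. The summed *Lce1* level was 1446, 1742, 1592, 1473 and 1209 CPM in control mice 1 to 5, and 5540, 5737, 3902 and 731 CPM in *Supt6*-KO mice 1 to 4. The first 3 *Supt6*-KO mice thus stood above every control and mouse 4 below every control. Mice 1 to 3 lay above every control in 8 of the 10 members, where 33.9% of all genes did so, and all 4 did so in *Lce1f* alone, where 28.9% of all genes did so. Mouse 4 lay below every control in 7 members, as it did in 42.6% of all genes. For 5 members (*Lce1a1*, *Lce1b*, *Lce1c*, *Lce1d* and *Lce1i*) mice 1 to 3 were above and mouse 4 below every control, a pattern shown by 231 of the 16426 genes (1.41%). Scaled to library totals instead, mice 1 to 3 were above every control in the same 8 members (16.2% of all genes), but mouse 4 was above every control in none. It was then within the controls in *Lce1f* and below all of them in the other 9 members, as in 55.7% of all genes. In the deposited TPM values mouse 4 was below every control in all 10. Of the 3427 genes called higher, 216 (6.30%) had mouse 4 within or below the control range, and among the 8 members called higher this was so for 7.

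**Figure D1:**
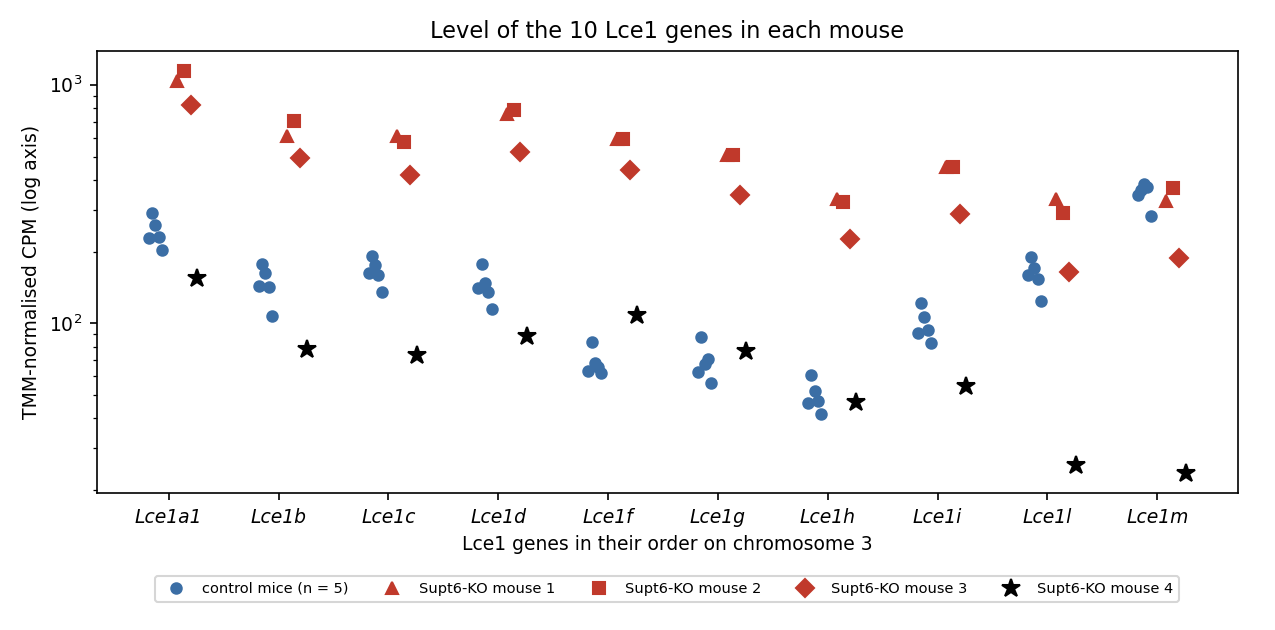
TMM-normalised CPM (log axis) of each *Lce1* member in each mouse, in the order of the genes on chromosome 3, with control mice as circles (n = 5) and each *Supt6*-KO mouse with its own symbol (n = 4). *Supt6*-KO mice 1 to 3 sit above all controls except for *Lce1l* and *Lce1m*, and on this TMM scale *Supt6*-KO mouse 4 (star) sits above all controls only for *Lce1f*, where it falls among them on library totals.

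*Lce1f* stood at 63.5, 83.8, 68.6, 65.5 and 62.2 CPM in the controls and at 593, 594, 438 and 109 CPM in *Supt6*-KO mice 1 to 4. Mice 1 to 3 were far above every control. Mouse 4 was above them on this scale only, within them on library totals (99.1 CPM, against 79.0 to 100 CPM) and below them in TPM (225, against 248 to 297). The control mean was 68.7 ± 8.79 CPM (SD, n = 5) and the *Supt6*-KO mean 434 ± 229 CPM (SD, n = 4), which gives a log2 fold change of 2.66 (SE 0.38, edgeR adjusted p = 7.9e-05). Without mouse 4 it was 2.98, or 7.88-fold (SE 0.14, edgeR adjusted p = 9.6e-08).

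*Lce1g* and *Lce1h*, the next members along the chromosome, came next in size. *Lce1g* had 62.7, 87.4, 67.8, 70.7 and 56.4 CPM in the controls and 508, 508, 346 and 76.5 CPM in the *Supt6*-KO mice. Mouse 4 fell inside the control range, and below it on library totals, with the other *Supt6*-KO mice far above it. The log2 fold change of *Lce1g* was 2.38 (SE 0.42, edgeR adjusted p = 3.4e-04), and 2.72 without mouse 4. *Lce1h* averaged 49.7 ± 7.21 CPM in the controls (SD, n = 5) and 232 ± 132 CPM in *Supt6*-KO mice (SD, n = 4), with a log2 fold change of 2.22 (SE 0.42, edgeR adjusted p = 5.8e-04). Here too mouse 4, at 47.1 CPM, lay within the controls, and below them on library totals.

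*Lce1a1*, the first member along the chromosome, had 228, 289, 258, 231 and 203 CPM in the controls and 1034, 1142, 820 and 155 CPM in the *Supt6*-KO mice. Mouse 4 was the lowest of all 9 mice. Its log2 fold change was 1.70 (SE 0.42, edgeR adjusted p = 0.0034), and 2.05 without mouse 4 (SE 0.15). *Lce1b*, *Lce1d* and *Lce1i* behaved in the same way, with log2 fold changes of 1.68, 1.90 and 1.65 and adjusted p of 0.006, 0.0029 and 0.0058 (edgeR). Their control means were 147 ± 26.7, 144 ± 22.9 and 99.2 ± 15.2 CPM (SD, n = 5), and mouse 4 stood at 78.0, 88.6 and 54.7 CPM, below every control of each.

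*Lce1c*, the member on the forward strand, rose least among those called. It had 163, 191, 175, 160 and 135 CPM in the controls and 609, 577, 418 and 73.6 CPM in the *Supt6*-KO mice. Mice 1 to 3 were above and mouse 4 below every control. The log2 fold change was 1.35 (SE 0.44, edgeR adjusted p = 0.016), and 1.70 without mouse 4. It was the member whose call was lost when *Supt6*-KO mouse 1 was left out (1.11, edgeR adjusted p = 0.055). Its call was also lost on library totals (0.59, edgeR adjusted p = 0.2) and with a block for replicate number (0.97, edgeR adjusted p = 0.11). The same held in a test against a 2-fold change (edgeR adjusted p = 0.22).

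*Lce1l*, the last gene before the *Lce3* group, was not called. It stood at 160, 190, 170, 153 and 124 CPM in the controls and at 333, 289, 165 and 25.6 CPM in the *Supt6*-KO mice, so that mice 1 and 2 were above the controls, mouse 3 within them and mouse 4 far below. On library totals mouse 2 was within and mouse 3 below the controls. The log2 fold change was 0.35 (SE 0.50, edgeR adjusted p = 0.55). Without mouse 4 it was 0.72 (SE 0.21, edgeR adjusted p = 0.0085), under the 2-fold limit.

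*Lce1m*, on the far side of the *Lce3* group, was not called in either direction. Its levels were 346, 362, 384, 373 and 282 CPM in the controls and 325, 369, 188 and 23.6 CPM in the *Supt6*-KO mice. Mice 1 and 2 lay within the control range, mouse 3 below it, and mouse 4 at 6.77% of the control mean. On library totals all 4 lay below every control. The log2 fold change was -0.63 (SE 0.53, edgeR adjusted p = 0.31), and -0.25 without mouse 4 (SE 0.20, edgeR adjusted p = 0.28).

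Without *Supt6*-KO mouse 4 the same 8 members were called, with log2 fold changes of 1.70 to 2.98 and standard errors of 0.14 to 0.17. These small errors follow from leaving out the mouse that differed, so they do not measure the spread of *Supt6*-KO mice. In that comparison of 5 controls with 3 *Supt6*-KO mice, 20.4% of 16335 genes were called higher and 25.7% lower. The scaling also bears on the count. With library totals in place of TMM factors, the median of all genes moved from -0.072 to -0.759. Then 4 members (*Lce1d*, *Lce1f*, *Lce1g* and *Lce1h*) were called higher, against 8.95% of all genes, and 1 (*Lce1m*) lower, against 41.4%. The same 4 members passed a test against a 2-fold change rather than against no change, against 13.8% of all genes.

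**Figure D2:**
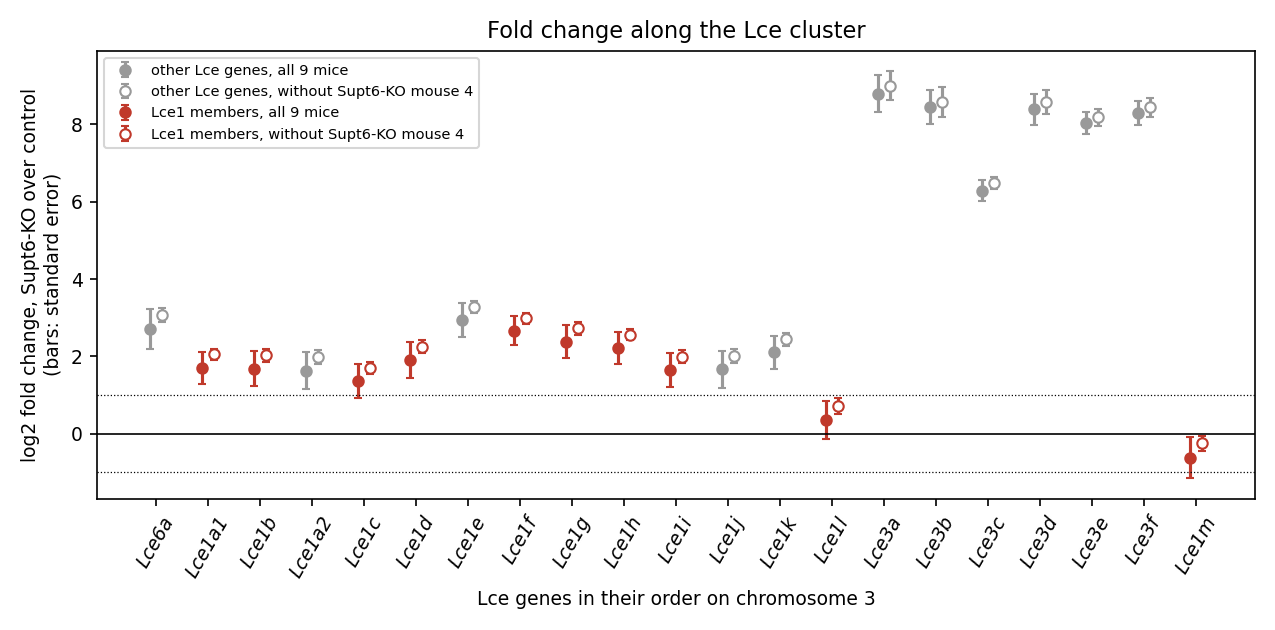
Log2 fold change of *Supt6*-KO over control for each *Lce* gene in chromosome order, with bars for the standard error, filled symbols for all 9 mice and open symbols without *Supt6*-KO mouse 4; dotted lines mark a 2-fold change. *Lce1f* and its neighbour *Lce1e* stand highest among the *Lce1* genes (2.66 and 2.94), *Lce1l* (0.35) and *Lce1m* (-0.63) lie lowest, and the *Lce3* genes between those last reach 6.28 to 8.80.

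The members differed not only in how much they rose but in how they shared the *Lce1* counts, which does not depend on the scaling between mice. The share of each member in the summed counts of the 10 genes is a share of counts and not of molecules, since the transcripts differ in length. *Lce1m* made up 23.9%, 20.8%, 24.2%, 25.3% and 23.3% of the *Lce1* counts in the controls and 5.87%, 6.43%, 4.81% and 3.23% in the *Supt6*-KO mice. *Lce1f* made up 4.39%, 4.81%, 4.31%, 4.45% and 5.14% in the controls and 10.7%, 10.4%, 11.2% and 14.9% in the *Supt6*-KO mice. In both genes all 4 *Supt6*-KO mice lay outside the control range on the same side, mouse 4 included.

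The same held for 9 of the 10 members, the exception being *Lce1c*, whose share was 11.1% ± 0.185 in the controls and 10.5% ± 0.469 in *Supt6*-KO mice, with overlapping ranges. The shares of *Lce1g* went from 4.61% ± 0.319 (SD, n = 5) to 9.33% ± 0.764 (SD, n = 4) and those of *Lce1h* from 3.33% ± 0.123 to 5.95% ± 0.355. *Lce1l* went from 10.7% ± 0.354 to 4.69% ± 1.08. *Lce1a1*, *Lce1b*, *Lce1d* and *Lce1i* made up larger shares too, in *Lce1a1* from 15.7% to 16.8% in the controls to 18.7% to 21.2% in *Supt6*-KO mice. For every 100 counts of *Lce1m* there were 17.6 to 23.2 counts of *Lce1f* in the controls, and 182, 161, 234 and 461 in *Supt6*-KO mice 1 to 4. Mouse 4, with the lowest *Lce1* level of the 9 mice, thus had the largest shift toward *Lce1f*. Shares of one sum move together, so they are given without a test.

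**Figure D3:**
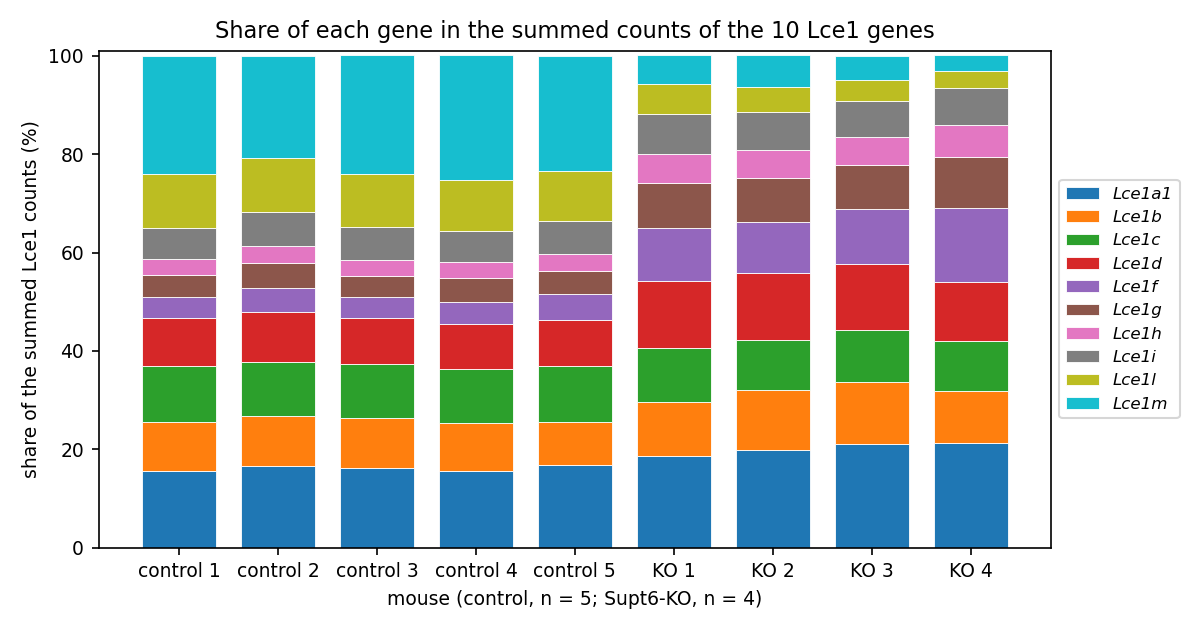
Share of each member in the summed counts of the 10 *Lce1* genes (%), as stacked bars for each control (n = 5) and *Supt6*-KO mouse (n = 4). *Lce1m* and *Lce1l* at the top shrink in all 4 *Supt6*-KO mice, and *Lce1f*, *Lce1g* and *Lce1h* in the middle widen, with the largest share of *Lce1f* (14.9%) in *Supt6*-KO mouse 4.

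Levels can be compared between genes only per length, for which the TPM values of the 5 controls and *Supt6*-KO mouse 4 were used. In control skin *Lce1m* (997 ± 74.8 TPM, SD, n = 5) and *Lce1a1* (987 ± 38.8 TPM) stood highest, and their ranges overlapped. *Lce1l* (721 ± 37.8 TPM), *Lce1b* (709 ± 53.8), *Lce1c* (647 ± 17.5) and *Lce1d* (635 ± 41.4) followed, each overlapping the next, below *Lce1a1* in all 5 controls. *Lce1i* (382 ± 21.4 TPM) and *Lce1f* (275 ± 21.8) were each set apart from their neighbours in all 5 controls. *Lce1h* (204 ± 10.4 TPM) and *Lce1g* (181 ± 17.5) were lowest, with overlapping ranges, although *Lce1h* exceeded *Lce1g* in each control. In *Supt6*-KO mouse 4 the order was different. *Lce1a1* led with 328 TPM and *Lce1f* came next with 225 TPM, while *Lce1l* (60.3 TPM) and *Lce1m* (34.6 TPM) came last.

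The 4 other *Lce1* genes of the cluster, which were not among the 10, were all called higher. *Lce1e*, the neighbour of *Lce1f*, averaged 59.5 ± 10.5 CPM in the controls (SD, n = 5) and 457 ± 257 CPM in *Supt6*-KO mice (SD, n = 4), with a log2 fold change of 2.94 (SE 0.43, edgeR adjusted p = 9.2e-05). Mouse 4, at 92.7 CPM, was above every control on the TMM scale, within them on library totals (84.3 CPM, against 63.3 to 91.8 CPM) and below them in TPM (194). *Lce1k*, *Lce1j* and *Lce1a2* had log2 fold changes of 2.10, 1.66 and 1.63 and were below every control in mouse 4. *Lce1a2* and *Lce1j* were not called on library totals. The promoter of *Lce1k*, which was called higher, did not hold ACTGTNTCAC, and those of *Lce1a2*, *Lce1e* and *Lce1j* did. *Lce6a*, the first gene of the cluster, rose by 2.70 on the log2 scale (SE 0.52, edgeR adjusted p = 6.2e-04), again with mouse 4 below the controls.

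*Lce3* genes differed from *Lce1* genes both in the size of the change and in mouse 4. All 6 were called higher, with log2 fold changes of 8.80 (*Lce3a*), 8.44 (*Lce3b*), 6.28 (*Lce3c*), 8.39 (*Lce3d*), 8.04 (*Lce3e*) and 8.29 (*Lce3f*). Their summed level was 5.32, 5.86, 5.98, 4.14 and 2.93 CPM in the controls and 1116, 803, 1117 and 543 CPM in the *Supt6*-KO mice, so that mouse 4 was far above every control. *Lce3b* had no count in control mouse 5. In the controls there were 0.242 to 0.377 *Lce3* counts for every 100 *Lce1* counts, and in *Supt6*-KO mice 1 to 4 there were 20.1, 14.0, 28.6 and 74.3. The groups did not overlap, and mouse 4 was again the most extreme.

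The *Lce1* level was also set beside markers of the layers in which these genes are used. For every 100 counts of *Krt10* there were 10.0, 12.6, 11.7, 9.52 and 8.40 summed *Lce1* counts in the controls and 28.3, 28.9, 21.4 and 9.41 in the *Supt6*-KO mice. Mouse 4 thus fell within the controls and mice 1 to 3 above them. For every count of *Lor*, which encodes loricrin, there were 0.863 to 2.07 *Lce1* counts in the controls. In the *Supt6*-KO mice there were 8.63, 9.67, 6.82 and 4.51, and here all 4 lay above every control. Against *Krt1*, also of the suprabasal layers, the direction was the opposite. *Krt1* had 23529 to 38450 counts in the controls, fewer than the summed *Lce1* counts there (47488 to 63626). In *Supt6*-KO mice it had 202200 to 313575 counts, more than their summed *Lce1* counts (20363 to 132597).

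**Figure D4:**
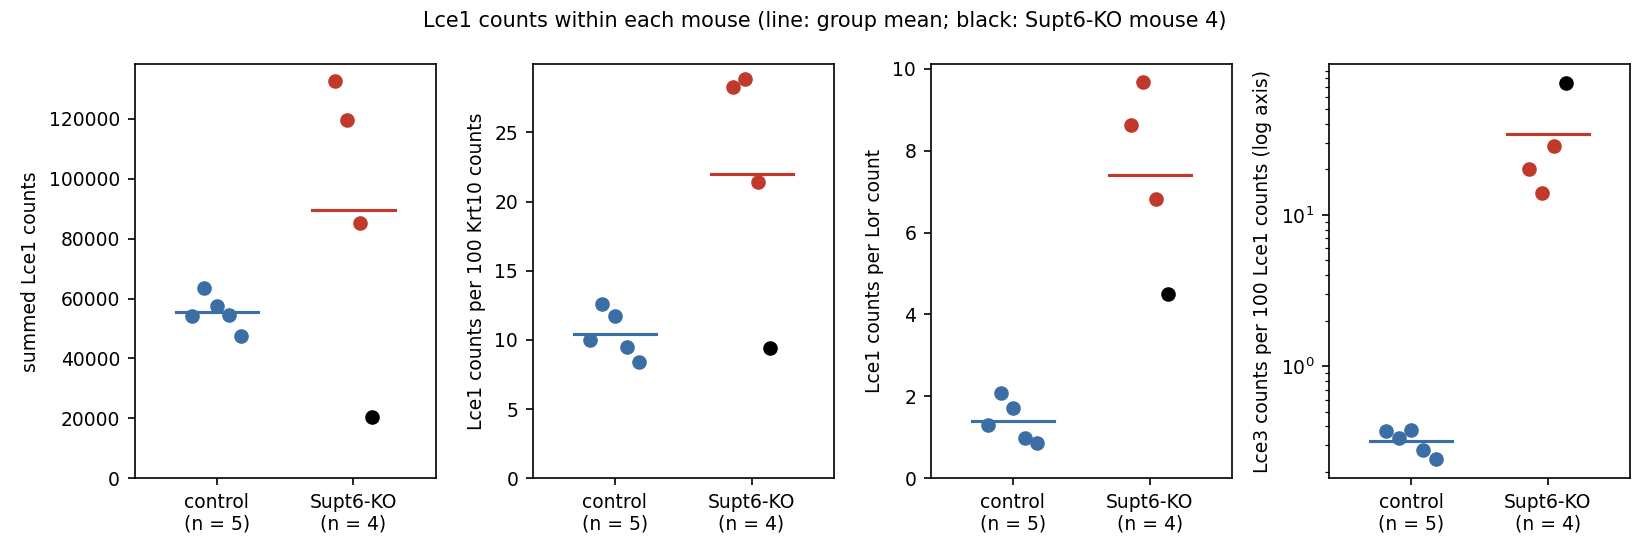
Summed *Lce1* counts, *Lce1* counts per 100 *Krt10* counts, *Lce1* counts per *Lor* count and *Lce3* counts per 100 *Lce1* counts (log axis) in each mouse, with lines at the group means (control, n = 5; *Supt6*-KO, n = 4) and *Supt6*-KO mouse 4 in black. Mouse 4 lies below the controls for the summed counts (20363), among them against *Krt10* (9.41), and above them against *Lor* (4.51) and for *Lce3* (74.3).

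Of 12 other precursors of the envelope that were tested, 6 were called higher and 1 lower, and *Flg* was not analysed here. *Rptn* (repetin) rose by 9.41, *Crct1* by 2.77, *Cnfn* (cornifelin) by 2.14, *Ivl* (involucrin) by 1.99, *Krtdap* by 1.82 and *Hrnr* (hornerin) by 1.48 on the log2 scale. *Lor* fell by 1.23 on that scale with all mice, and was not called without mouse 4 (-0.95, edgeR adjusted p = 0.0016, under 2-fold). *Flg2* (-0.88), *Kprp* (0.05), *Sbsn* (-0.25), *Tchhl1* (-2.56) and *Crnn* (0.62) were not called. Without control mouse 1, *Tchhl1* stood at -1.23 and *Crnn* at 1.67. On library totals 5 were called higher, *Hrnr* no longer, and 3 lower, with *Flg2* and *Tchhl1* added. In mouse 4, *Flg2* stood at 55.6 CPM against 405 to 802 CPM in the other *Supt6*-KO mice, and at 6.73% of its control mean it was as low as *Lce1m*, whereas *Ivl*, *Cnfn*, *Krtdap*, *Crct1* and *Rptn* stayed above every control.

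**Figure D5:**
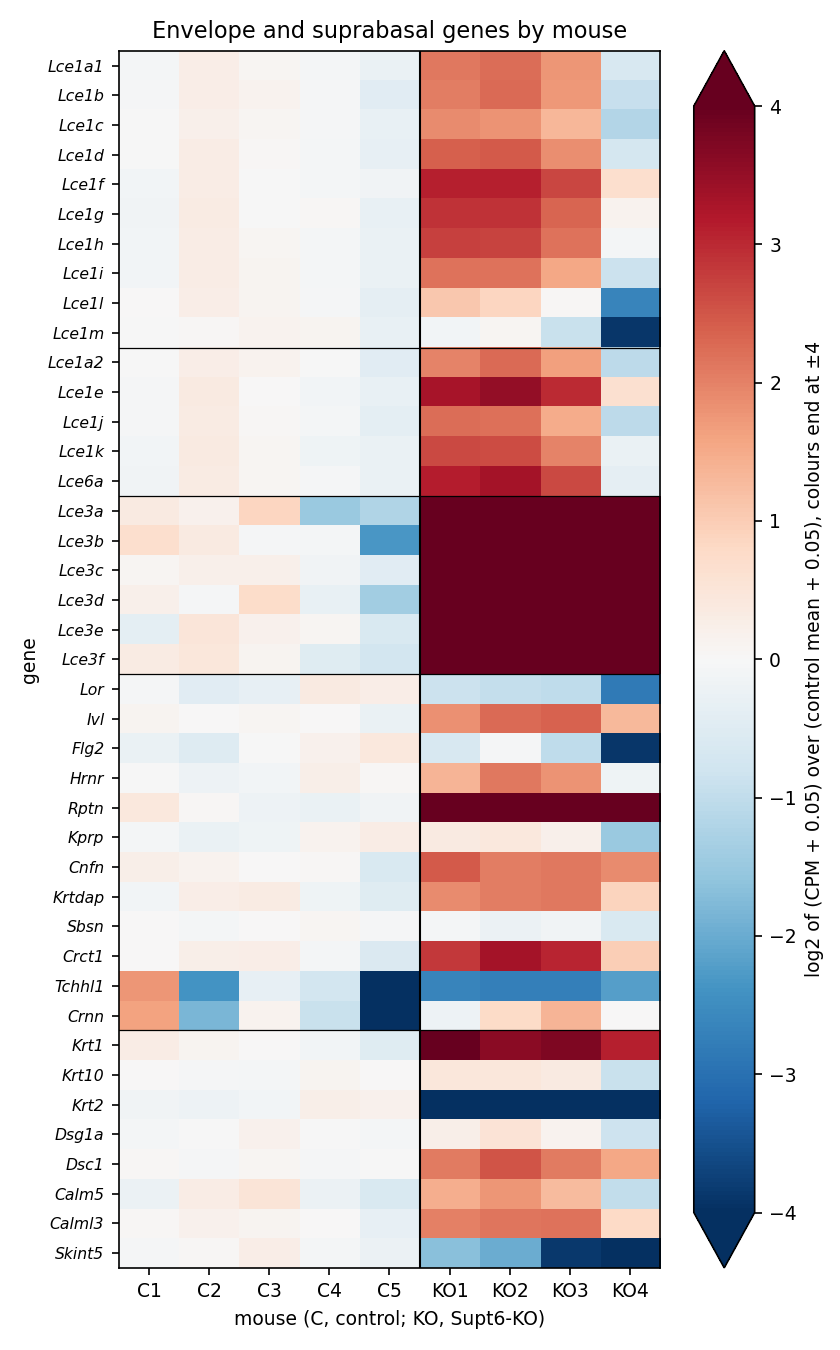
Level of each *Lce* gene, envelope precursor and suprabasal marker in each mouse, as log2 of its CPM + 0.05 over the control mean + 0.05, with red for higher, blue for lower and colours ending at 4 in either direction. Apart from *Lce1l* and *Lce1m*, the *Lce1* rows are red in *Supt6*-KO mice 1 to 3, and on this TMM scale all are pale or blue in mouse 4, except *Lce1f* and *Lce1e*, while the *Lce3* and *Rptn* rows are dark red in all 4.

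Of the 14 *Sprr* genes tested, 13 were called higher and *Sprr4* (0.62) was not. *Sprr1b* rose by 7.85 and *Sprr1a* by 2.86 on the log2 scale, and both were highest in mouse 4 (2229 and 1313 CPM). Without mouse 4 *Sprr1a* stood at 2.01 (edgeR adjusted p = 0.0016). *Sprr2a1* and *Sprr2a2* had identical counts in every mouse, so their value of 6.47 is that of 1 measurement. Of 14 enzymes that cross-link or process the envelope and its precursors, 9 were called higher and 1 lower, and 6 and 2 on library totals, where *Ctsl* was among those not called. *Klk7*, a protease that loosens corneocytes, rose by 2.31, *Blmh*, which degrades filaggrin, by 2.21, *Asprv1*, which processes filaggrin, by 1.98 and *Ctsl*, a lysosomal protease, by 1.56 on the log2 scale, each above every control in all 4 *Supt6*-KO mice. *Asprv1* was lower in mouse 4 (1875 CPM) than in the other *Supt6*-KO mice (4553 to 5610 CPM), as the *Lce1* genes were.

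Of 20 regulators of epidermal differentiation, 3 were called higher and 5 lower, close to the shares of 20.9% and 24.9% among all genes, and their median log2 fold change was -0.53. Without mouse 4, 6 were lower, *Tfap2a* in addition (-1.09). On library totals 1 was higher and 14 were lower, against 8.95% and 41.4% of all genes, and *Klf4* and *Cebpa* were among the lower ones. *Hopx* rose by 1.76 and *Trp63*, the p63 gene that maintains the epidermal lineage, fell by 1.21 on the log2 scale. *Klf4*, a factor of the upper layers, stood at -0.54 and *Cebpa* at -0.49 (adjusted p = 0.0091 and 0.03 from edgeR), both under 2-fold. *Trp63* stood at 203 CPM in mouse 4 and at 200 to 219 CPM in the other *Supt6*-KO mice.

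Of 8 markers of the suprabasal layers, 4 were called higher and 2 lower. *Krt1* rose by 3.65, *Dsc1* (a desmosomal cadherin) by 2.10, *Calml3* by 1.88 and *Calm5* by 1.17 on the log2 scale. *Krt2* fell by 6.35 (-7.15 without *Supt6*-KO mouse 1) and *Skint5* by 2.66. *Calm5* was not called on library totals. *Krt10* (0.19) and *Dsg1a* (0.11) were not called. The summed level of these markers, led by *Krt10*, was 26183 to 30996 CPM in the controls, 34079 to 37694 CPM in *Supt6*-KO mice 1 to 3 and 17549 CPM in mouse 4. Mice 1 to 3 were above and mouse 4 below every control on the TMM scale. On library totals all 4 were below, with 24061 to 29431 CPM in mice 1 to 3 and 15967 CPM in mouse 4 against 31365 to 38399 CPM, whereas the summed *Lce1* level of mice 1 to 3 stayed above every control (2755 to 4326 CPM, against 1590 to 2087 CPM). *Krt10* and *Krt1*, which define these layers, were among the abundant transcripts of both groups.

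Markers of other cells of the skin moved with the groups too, and their part in the *Lce1* result was not tested. No marker tested was at 0 counts in all 9 mice. Of 6 basal keratinocyte markers, 3 were called lower, *Krt15* (-2.65), *Col17a1* (-2.45) and *Itgb4* (-2.69). *Krt14* (0.66) was not called. It had the highest mean of the list in *Supt6*-KO mice (5355 CPM), and *Krt5* had it in the controls (4631 CPM, against 3379 CPM of *Krt14*). *Krt5* (-0.86, edgeR adjusted p = 0.0048) was under the 2-fold limit, and without mouse 4 it was called lower (-1.10, edgeR adjusted p = 1.7e-04). The summed basal level was 11169, 11669, 11195, 12768 and 11456 CPM in the controls and 8196, 5583, 6814 and 13902 CPM in the *Supt6*-KO mice. Mouse 4 was the highest of the 9 mice here on the TMM scale, but on library totals it was below every control (12649 CPM, against 13650 to 15818 CPM). It was the highest of the *Supt6*-KO mice on both scales. On library totals *Krt5* and *Itga6* were called lower too.

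All 7 hair follicle markers tested were called lower. Their sum was 1621, 140, 576, 319 and 2.55 CPM in the controls and 2.01, 2.16, 2.10 and 1.51 CPM in the *Supt6*-KO mice. *Krt71* had the highest mean of the list in the controls, and *Krt27* had it in *Supt6*-KO mice. Control mouse 5 was near the *Supt6*-KO mice in this sum, and its *Lce1* level (1209 CPM) was the lowest of the controls. The next lowest *Lce1* level (1446 CPM) was that of control mouse 1, with the highest hair follicle sum. The highest *Lce1* level (1742 CPM) was that of control mouse 2. All 4 melanocyte markers had adjusted p under 0.05, and 3 were called higher, 2 of them without mouse 4 (*Tyrp1* was then at 0.97) and none on library totals. Their sum, led by *Dct*, was 57.8, 43.9, 42.7, 46.7 and 60.6 CPM in the controls and 88.3, 131, 147 and 133 CPM in the *Supt6*-KO mice. On library totals *Supt6*-KO mouse 1 was within the controls (69.0 CPM, against 52.0 to 79.7 CPM), with the other *Supt6*-KO mice above them.

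Markers of the dermis and of deeper tissue were lower or were not called. Of 5 fibroblast markers 2 were called lower, and 3 without mouse 4 (*Pdgfra*, -1.12, in addition), with sums, led by *Col3a1*, of 3990, 3540, 2508, 5236 and 9312 CPM in the controls and 2077, 2463, 3180 and 1435 CPM in the *Supt6*-KO mice. Of 5 skeletal muscle markers 4 were lower, with sums of 3461, 3573, 3831, 2918 and 3252 CPM against 790, 1034, 892 and 603 CPM. *Acta1* had the highest mean of this list in the controls, and *Mylpf*, which was not called (-0.36), had it in *Supt6*-KO mice. The groups overlapped for fibroblast markers, though not on library totals, where 4 of the 5 were called lower. They did not overlap for muscle markers. All 3 endothelial markers were lower, with sums, led by *Pecam1*, of 63.1, 50.6, 37.8, 66.9 and 86.6 CPM against 25.4, 23.9, 28.4 and 22.9 CPM. All 3 adipocyte markers were lower, with sums, led by *Adipoq*, of 98.8, 118, 104, 90.0 and 74.3 CPM against 36.1, 27.1, 37.8 and 29.5 CPM. Neither of these lists overlapped between the groups.

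Among immune cells, 4 of 6 neutrophil markers tested were called higher and 1 lower, with sums of 8.99, 7.04, 6.64, 7.79 and 3.79 CPM in the controls and 32.3, 27.6, 68.9 and 14.7 CPM in the *Supt6*-KO mice. *Cxcr2* was the larger part of the sum in the controls (6.00 CPM on average, against 0.212 CPM of *Retnlg*), and the sum of *Supt6*-KO mouse 3 was mainly *Retnlg* (53.4 CPM, against 10.6 CPM of *Cxcr2*). Over the other 3 *Supt6*-KO mice *Cxcr2* had the higher mean (14.3 CPM, against 9.70 CPM). Apart from *Retnlg* and *Cxcr2*, no neutrophil marker had a mean over 0.655 CPM (*Ngp*) in all mice. The other neutrophil calls, higher and lower, thus rest on few counts. *Cxcr2* and the macrophage marker *Cd68* were not called on library totals. Of 4 macrophage markers 2 were higher and 1 lower (1 and 1 without mouse 4, where *Cd68* was at 0.78 and not called). Their sums were 82.0, 66.3, 59.7, 81.6 and 137 CPM against 120, 130, 122 and 148 CPM. *Csf1r*, which was called lower (-1.83), had the highest mean of the list in the controls, and *Mrc1* had it in *Supt6*-KO mice. Mouse 4 was above every control in this sum, and within them on library totals (135 CPM, against 72.8 to 180 CPM). Of 4 T cell markers 3 were lower, with sums, led by *Cd3g*, of 32.9, 38.9, 42.5, 33.4 and 29.4 CPM against 9.48, 6.76, 5.63 and 3.99 CPM. Mouse 4 had the lowest neutrophil and T cell sums of the *Supt6*-KO mice and the highest macrophage sum.

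The *Lce1* members varied together within the groups. With each group centred on its own mean, the log2 CPM of each member had a Pearson correlation of 0.992 to 0.999 with the mean of the other 9 over the 9 mice. These points share libraries and depth, and *Supt6*-KO mouse 4 lies far from the rest, so the values describe mainly that mouse. Over the 13554 genes with a mean of at least 1 CPM, the 5 genes outside the members with the most similar pattern were *Lce1j* (0.999), *Lce6a* (0.999), *Scgb1b27*, *Tesc* and *Gal3st1* (each 0.997). *Scgb1b27* had 2.96 CPM on average in *Supt6*-KO skin and rests on few counts. Of these, *Scgb1b27* (0.30), *Tesc* (-0.77) and *Gal3st1* (-0.94) were not called, *Gal3st1* only for being under 2-fold (edgeR adjusted p = 0.011). *Tesc* and *Gal3st1* lay below the controls on average. Among the *Supt6*-KO mice, both were lowest in mouse 4 and next lowest in mouse 3, as the summed *Lce1* level was.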

How the data were processed

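The measurement was bulk skin RNA-Seq, with 5 control and 4 *Supt6*-KO libraries. The authors made the deposited estimated counts with RSEM 1.3.1 after alignment with Bowtie2 2.3.4.3 to mm10 (HISAT and DESeq2 1.4.5 are also in the submitters' processing notes), and the annotation is not given in the sources used here. These estimated counts are not normalized between mice, and 9.00% are not whole. They were rounded. The authors also deposited TPM values for 6 mice. They were used here for levels between genes, in place of the CPM per kilobase that had been planned. They also served to place *Supt6*-KO mouse 4 against the controls.

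Genes with a sum of at least 10 counts were tested with edgeR 4.0.16 in R 4.3.3 (TMM, quasi-likelihood, no covariates). The alternatives were DESeq2 1.42.0, other scalings and filters, a replicate block, a test against a 2-fold change and each mouse left out. Calls of the other lists and places of mice on library totals were added after seeing the data. The tests were tried on simulated data, in which as many genes rose as fell and no mouse stood apart, unlike in these data. The members and gene lists were chosen with earlier results of these data known. Named genes are the members, *Supt6*, all genes of the lists of other *Lce* genes, precursors and suprabasal markers, the 4 most abundant of each other list where listed, and the 5 genes most alike in pattern. *Itgb4*, *Itga6*, *Sprr4*, *Tfap2a* and *Pdgfra* lie outside this rule and were named after their values were seen. Sources do not say that the mice of a group are littermates or otherwise related. Upstream sequences were aligned globally with Biopython 1.88 (match 1, mismatch -1, gap opening -2, gap extension -0.5). Tables were made with Python 3.11.15 and pandas 2.3.3.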

Additional observations from a re-analysis of the deposited data

Results flagged for a closer look

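Of 264 groups (each of 4 or 5 mice, for a named gene, a sum, a share, a ratio or a library measure), 11 held a mouse far outside the rest. Chance alone marks about 1 in 20 groups, or 13.2 of them. *Supt6*-KO mouse 4 was the mouse in 4 of them. It had 162 CPM of *Lor* (group median 583) and 7775 CPM of *Krt10* (median 18892), both low like its *Lce1* level, with 2.55 CPM of *Cdh5* (median 3.60) and 4.92 CPM of *Tchhl1* (median 3.47). *Supt6*-KO mouse 1 had 2.26 CPM of *Cd247* (median 1.15), 0.877 CPM of *Cd3e* (median 0.304) and 2752 CPM over the differentiation regulators (median 2509). In the controls, mouse 1 had 77.1 CPM of *Tchhl1* (median 13.6), mouse 3 had 1704 CPM of *Dsg1a* (median 1474), and mouse 5 had 42.8 CPM of *Mrc1* (median 18.7) and 137 CPM over the macrophage markers (median 81.6). No *Lce1* member, share or ratio was among the 11.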

How the results depend on the processing

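Over 17 alternatives for each member, *Lce1d*, *Lce1f*, *Lce1g* and *Lce1h* were called higher in all. With library totals, 1470 genes were called higher and 6802 lower, and 4 members higher and 1 lower (*Lce1m*, -1.40, adjusted p = 0.028 from edgeR). *Lce1l* then stood at -0.41. No gene of the other lists turned from one call to the opposite one. The test against a 2-fold change called 2271 genes and 4 members higher, and in both settings *Lce1a1*, *Lce1b*, *Lce1c* and *Lce1i* lost their call. DESeq2 called the same 8 members higher and none lower, against 21.8% of 16405 genes higher and 23.0% lower. Leaving out each mouse gave 3248 to 3476 genes higher, 3845 to 4204 lower, 7 to 8 members higher, 0 lower, 6 *Lce3* genes higher and *Supt6* at -1.66 to -1.47. *Lce1l* ranged from 0.00 to 0.72 in those fits. With at least 10 counts in every mouse, 3 *Lce3* genes remained in the test and were higher. Mice of the same number had a mean correlation of deviations of 0.115 (-0.023 to 0.227 over 4 pairs), against -0.022 over 16 others, and not every pair was over 0.1, so the mice were not treated as paired. Under the replicate block, 3134 genes (19.1%) passed as higher and 3834 as lower, *Supt6* was at -1.46, 7 members were higher, *Lce1c* was not called (0.97, adjusted p = 0.11 from edgeR) and *Lce1l* stood at -0.15. The cause of these changes was not tested. The *Lce1* members had 20363 summed counts in the lowest mouse, of which *Lce1m* had 658. Whether depth affected them was not tested.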
